A study of Mus musculus with 8 samples.

Results

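The mitochondrial ribosomal protein genes are the nuclear genes that encode the protein part of the ribosome inside mitochondria. They were taken here as every protein-coding gene of the brown fat count table whose GRCm38 symbol is Mrpl or Mrps followed by a number, without the suffix -ps of named pseudogenes. This rule gave 78 of the 54385 genes in the table, 49 of the large subunit (Mrpl) and 29 of the small subunit (Mrps), spread over 17 chromosomes with 11 on chromosome 11 and 8 on chromosome 17. A set of 5 named pseudogenes was left out. All 78 passed the filter on low counts and were among the 14553 genes tested.

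The libraries hold polyadenylated RNA of brown adipose tissue from C57BL/6N mice aged 20 weeks and kept on chow. All 8 libraries are from mice with floxed alleles of Adcy3, the gene of an adenylyl cyclase that makes cyclic AMP. The 4 WT libraries are titled as controls, and the 4 cKO libraries carry in addition a Cre recombinase under the promoter of the adiponectin gene Adipoq, so the deletion is meant for adipocytes and the other cells of the tissue keep Adcy3. The sample labels place the tissue between the shoulder blades and the design text in the groin. WT replicate 4 is titled WT while its genotype entry lists the Cre, and its Adcy3 level of 118 CPM (counts scaled to the size of each library) lay among those of the other WT libraries, which held 61.7 to 118 CPM. The cKO libraries held 17.95 to 25.3 CPM. Nothing in the labels states that the replicates are different animals, and the p-values therefore cover the spread among libraries, which may be technical.

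Mammalian mitochondria translate a handful of messengers of their own genome, all of which encode core subunits of the respiratory chain and the ATP synthase. The ribosome that does so pairs 2 ribosomal RNAs made in the mitochondrion with proteins that are translated in the cytosol and imported. Some of these proteins descend from bacterial ribosomal proteins, and the others are particular to mitochondria. Brown fat is rich in mitochondria, whose uncoupling protein Ucp1 turns respiration into heat, and it therefore needs both genomes to supply its respiratory chain.

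Promoters of 7 members are shown first, because short motifs recur in some of the family's promoters more often than in those of coding genes as a whole. RefSeq windows from 250 bases before to 50 bases after the start (GRCm38.p6) were matched for 69 of the 78 genes, and both strands were searched for 3 short motifs named after factors known for housekeeping and mitochondrial promoters. The sequences below are the 150 bases before the RefSeq start, 5′ to 3′ along the gene's own strand, with the motif in capitals. GENCODE places the start of some genes elsewhere. By its coordinates all of the printed Mrpl39 sequence and most of that of Mrpl32, with their motifs, lie within the gene. Mrpl9, Mrpl32, Mrpl39 and Mrpl57 hold the NRF1 motif, which was searched as GCGC, an A, any base and GCGC. In Mrpl9, Mrpl32 and Mrpl39 it has its exact palindromic form, with T as the free base. Mrpl27 and Mrpl34 hold the ETS motif CCGGAAG, and Mrps11 holds the YY1 motif AAGATGGC on the other strand, read here as GCCATCTT. Of these genes, Mrpl9, Mrpl27 and Mrpl57 are among those whose WT and cKO levels did not overlap, Mrpl34 had the highest level of the family, Mrpl32 one of the lowest, and Mrps11 shares its start region with Mrpl46.
Mrpl9, chr3:94443186-94443335, plus strand: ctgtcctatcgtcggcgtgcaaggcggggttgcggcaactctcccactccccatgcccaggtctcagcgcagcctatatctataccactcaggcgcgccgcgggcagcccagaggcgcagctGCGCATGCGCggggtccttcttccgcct
Mrpl32, chr13:14613038-14613187, minus strand: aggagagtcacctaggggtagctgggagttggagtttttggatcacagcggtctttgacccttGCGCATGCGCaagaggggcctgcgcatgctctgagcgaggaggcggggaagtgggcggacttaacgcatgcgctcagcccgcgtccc
Mrpl39, chr16:84735245-84735394, minus strand: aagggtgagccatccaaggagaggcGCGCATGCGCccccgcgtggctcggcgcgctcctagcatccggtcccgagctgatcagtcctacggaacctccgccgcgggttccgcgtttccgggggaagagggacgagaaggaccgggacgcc
Mrpl57, chr14:57826089-57826238, plus strand: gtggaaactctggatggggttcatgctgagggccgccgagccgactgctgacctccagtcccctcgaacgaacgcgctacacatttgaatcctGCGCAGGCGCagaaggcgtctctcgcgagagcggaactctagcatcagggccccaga
Mrpl27, chr11:94653641-94653790, plus strand: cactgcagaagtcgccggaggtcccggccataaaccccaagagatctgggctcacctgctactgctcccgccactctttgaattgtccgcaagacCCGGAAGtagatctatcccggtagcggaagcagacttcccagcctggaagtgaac
Mrpl34, chr8:71464776-71464925, plus strand: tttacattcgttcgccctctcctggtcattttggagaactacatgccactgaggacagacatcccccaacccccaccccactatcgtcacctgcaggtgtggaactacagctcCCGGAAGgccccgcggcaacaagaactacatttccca
Mrps11, chr7:78782981-78783130, plus strand: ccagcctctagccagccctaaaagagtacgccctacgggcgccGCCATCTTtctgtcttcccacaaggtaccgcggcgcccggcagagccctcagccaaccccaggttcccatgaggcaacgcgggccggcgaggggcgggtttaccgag

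A gene was counted where any of its windows held the motif. The ETS motif CCGGAAG lay in 26 of the 69 genes (37.7%), against 13.4% of the 16522 coding genes with a window. The NRF1 motif lay in 13 (18.8%, against 7.45%), and its palindromic form, counted within them, in 3 (4.35%, against 1.53%). The YY1 motif AAGATGGC lay in 12 (17.4%, against 3.64%). Of the 69 genes, 26 held none of the 3 motifs. A match describes letters in a window and not a bound site. The 26 genes with the ETS motif had a median difference of cKO over WT of -0.03 on the log2 scale and the 43 without it -0.01. The 13 with the NRF1 motif had a median of -0.04 with 4 values above 0, and the 56 without it a median near 0 with 28 values above 0. The 12 with the YY1 motif had a median near 0 with 6 values above 0, and the 57 without it -0.02 with 26 above 0.

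Family members also often start close to a coding gene on the opposite strand. In 33 of the 78 genes (42.3%), a coding gene on the opposite strand started within 1000 bases, against 10.8% of 22028 coding genes. The starts could lie in either order, so some of these pairs overlap. Mrps11 and Mrpl46, of the small and the large subunit, form such a pair with each other, their starts 412 bases apart on chromosome 7. Mrps12, a protein of the decoding centre, started 172 bases from Sars2, the mitochondrial seryl-tRNA synthetase, and Mrpl43 started 779 bases from Twnk, the helicase that unwinds mitochondrial DNA. Mrpl36 started 29 bases from Ndufs6, which encodes a subunit of respiratory complex I. Mrpl49 started 59 bases from Fau, which encodes a protein of the cytosolic ribosome. Exons overlap on opposite strands between Mrps11 and Mrpl46, between Mrpl43 and Twnk, and between Mrpl36 and Ndufs6. Of all tested genes edgeR called 0.0687%, and it called none of the 29 partners that could be tested. On the log2 scale of cKO over WT, Ndufs6 stood at -0.60 (edgeR adjusted p = 0.393) and Mrpl36 at 0.02. Ndufs6 held 107 to 149 CPM in the WT libraries and 74.5 to 92.4 CPM in the cKO libraries. Fau stood at -0.36, Sars2 at -0.06 and Twnk at 0.34.

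Transcript levels were compared between genes per length, as estimated counts per kilobase of merged exons scaled to the same sum in every library. On this TPM-type scale the family had a median of 30.7 over the means of the 78 genes, with quartiles at 14.4 and 50.1, and 68 genes stood at 10 or more. Mrpl34, a small protein of bacterial descent, stood highest at 205.8 ± 42.2 (SD over 8 libraries), with values of 162 to 286. Mrpl12, the stalk protein that recruits translation factors, followed at 136 ± 21.6 with values of 114 to 184. Mrpl34 lay above Mrpl12 within each of the 8 libraries, although the lowest library of Mrpl34 lay below the highest of Mrpl12.

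Mrps21, of the small subunit, stood at 126 ± 18.1 and Mrps36 at 124 ± 17.4. Neither differed from Mrpl12 by more than these spreads. Mrps36 carries the family name but is known as a component of the 2-oxoglutarate dehydrogenase complex. Mrpl2, which lines the peptidyl transferase centre, stood at 94.1 ± 23.5, and Mrpl10, which anchors the stalk, at 90.3 ± 6.18. Mrpl53, near the stalk (72.6 ± 12.4), and Mrpl18, of the central protuberance (69.3 ± 7.43), completed the 8 highest, within each other's spread.

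At the low end stood Mrpl32 at 8.24 ± 1.01, Mrpl33 at 7.47 ± 1.04, Mrpl19 at 7.31 ± 0.928 and Mrps10, of the head of the small subunit, at 6.57 ± 0.964. Neighbours in this order did not differ beyond their spread. Mrpl23 (chr7:142532686-142540747, plus strand), a protein at the exit tunnel, was apart from them at 0.816 ± 0.363. Its low value has a measured companion: the transcript of the pseudogene Mrpl23-ps1 was assigned 2429 counts over the 8 libraries against 282 for Mrpl23, and 67.6% of the 31-base sequences of Mrpl23's longest coding transcript also occur in transcripts of other genes. The counts of both together are therefore firmer than their division. Over its merged exons Mrpl23 shared 14.02%. For Mrpl53, 84.4% of the 31-base sequences of its merged exons recur in other genes, mostly in the predicted gene Gm42688, which shares its exons. On merged exons 1 member, Mrpl53, reached 50% and 24 of the 78 shared none, and on the longest coding transcript 2 members, Mrpl53 and Mrpl23, reached 50%.

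The order of levels depends on the length used. With the longest coding transcript in place of the merged exons, the median of the family was 44.1, Mrpl42 moved from rank 26 to rank 1 and Mrpl33 from rank 75 to rank 6. Merged exons of Mrpl33 span 7326 bases and its longest coding transcript 478 bases. Mrpl34, Mrpl12, Mrps21 and Mrps36 stayed among the highest 5 on both scales, and Mrpl23 was lowest on both. The plot of levels shows both scales for every gene.

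**Figure D1:**
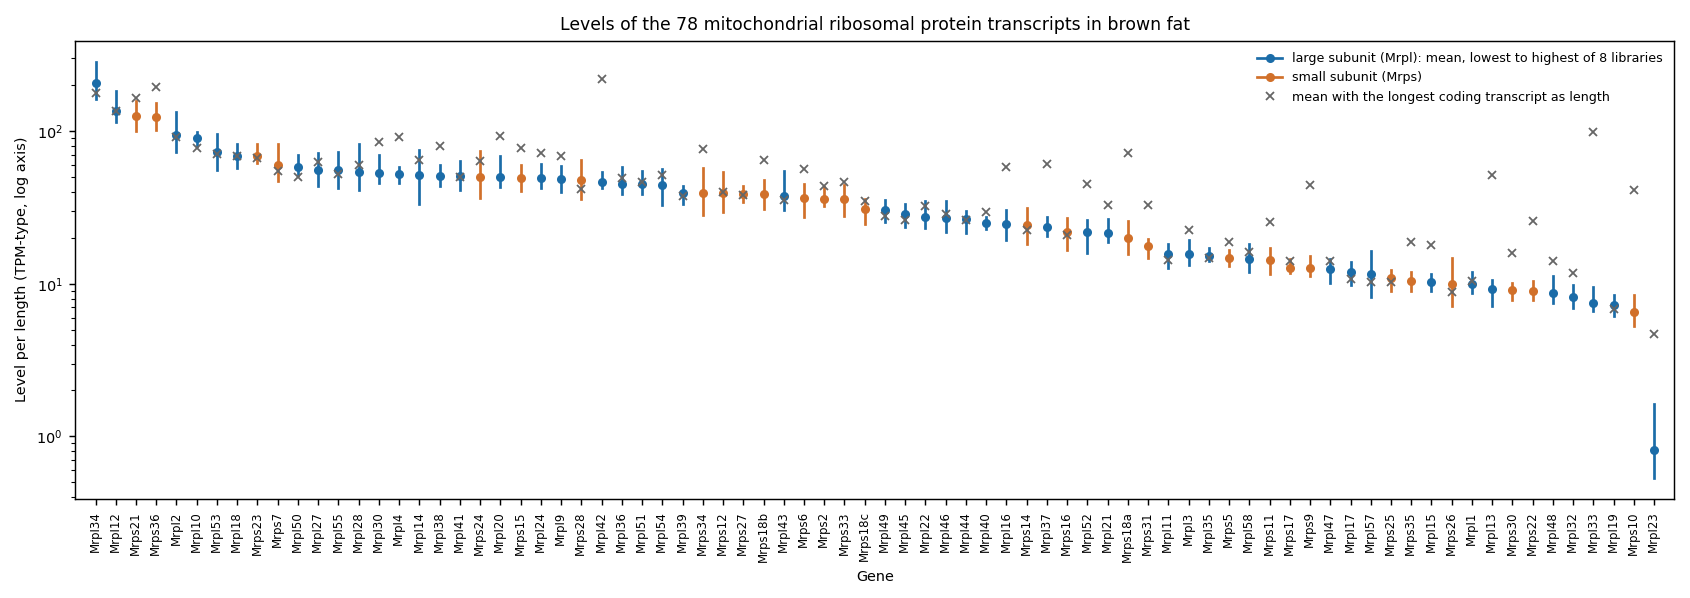
Level per length of the 78 genes on a log axis (TPM-type value), ordered by the mean over 8 libraries: points are means, lines run from the lowest to the highest library, and crosses are means with the longest coding transcript as length. Mrpl34 stands highest with 162 to 286, Mrpl23 lowest, and the crosses of Mrpl42 and Mrpl33 lie far above their points.

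Large and small subunit genes had medians per length, on merged exons, of 30.42 and 31.01. The 48 members with a bacterial homologue had a median of 33.6 and the 30 particular to mitochondria 29.5. The 4 genes of the stalk and its base had a median of 81.5, the 8 of the central protuberance 39.0, the 8 of the small subunit's head 20.9 and the 6 at the exit tunnel 19.9. For scale, the median of the 86 listed genes of cytosolic ribosomal proteins, 85 of them with counts, was 75.4. That of the 13 subunits encoded in the mitochondrial genome was 34659. With the longest coding transcript as length, the medians were 49.2 in the large and 41.1 in the small subunit, and 74.5 at the stalk. They were 48.5 in the central protuberance, 42.7 in the head, 20.2 at the exit tunnel and 134 for the cytosolic list, so the stalk then lay below the cytosolic proteins.

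Loss of Adcy3 in adipocytes was compared with control for each gene. No mitochondrial ribosomal protein gene was called by edgeR's quasi-likelihood test at an adjusted p of 0.05, where 0.0687% of all tested genes were called (10 genes, 0.0481% higher and 0.0206% lower in cKO). DESeq2, which called 0.316% of genes, limma-voom, which called 0.0687%, and edgeR without the count filter, which called 0.262% of 35502 genes, also called none of the 78. Their log2 fold changes of cKO over WT ran from -0.51 to 0.36 with a median of -0.02, beside 0.01 over all tested genes. Of the 78, 36 lay above 0 (46.2%, against 51.8% of all genes). The 95% interval of 72 genes (92.3%) lay wholly within a 1.5-fold change in either direction, as it did for 52.6% of all tested genes. The exceptions were Mrpl2, Mrpl14, Mrpl23, Mrps2, Mrps24 and Mrps26.

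The SD of log2 CPM over the 8 libraries had a median of 0.160 in the family and 0.258 over all tested genes, which include many with fewer counts. Mrpl37, a protein particular to mitochondria, varied least, with values between 56.5 and 61.5 CPM. Mrpl23 varied most, with values between 1.42 and 3.93 CPM, on few counts. Without a threshold for many tests, 6 genes (7.69%) had an unadjusted edgeR p below 0.05, as did 5.6% of all tested genes. They were Mrps2 and Mrpl35, higher in cKO (2.56%, against 2.15% of all genes), and Mrpl2, Mrps24, Mrps26 and Mrpl57, lower (5.13%, against 3.45%). Their adjusted p-values ranged upward from 0.867.

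In 8 genes (10.3%) the WT and cKO values in CPM did not overlap, which was so for 3.5% of all tested genes. Of these, 7 were lower in cKO (8.97%, against 2.27%) and 1 was higher (1.28%, against 1.23%). None of the 8 passed the adjusted test. The balance of directions depended on single libraries, and fewer libraries part more genes of any kind, so each setting is given with its share of all tested genes. Without cKO replicate 1, 7 members were lower (8.97%, against 4.96% of all genes) and 8 higher (10.3%, against 4.43%). Without WT replicate 1, 10 were lower (12.8%, against 4.58%) and 3 higher (3.85%, against 3.05%). Without WT replicate 3, 7 were lower (8.97%, against 3.13%) and 2 higher (2.56%, against 2.16%). With WT replicate 4 counted as cKO, 2 were lower (2.56%, against 2.49%) and 1 higher (1.28%, against 2.27%).

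Mrpl2 (GRCm38 chr17:46646229-46650139, plus strand) held 59.4, 71.6, 79 and 61.8 CPM in WT replicates 1 to 4 and 48.03, 55.4, 56.7 and 52.4 CPM in cKO replicates 1 to 4. All cKO values lay below the lowest WT value, and WT replicate 3 was highest. The fitted log2 difference was -0.35 ± 0.12 (SE, edgeR adjusted p = 0.867). Klc4, a kinesin light chain gene that starts 207 bases from Mrpl2 on the other strand, had a log2 fold change of -0.32 and was not called either.

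Mrps24 (chr11:5703983-5715680, minus strand), a protein at the messenger entry of the small subunit, held 39.1, 45.5, 55.2 and 40.01 CPM in the WT libraries. In the cKO libraries it held 34.3, 34.7, 38.3 and 36 CPM. The gap between the groups was small, and WT replicate 3 again stood highest. Its log2 fold change was -0.33 ± 0.12 (SE, edgeR adjusted p = 0.882), and -0.21 without WT replicate 3.

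Mrps26 (chr2:130563742-130568695, plus strand), a small subunit protein particular to mitochondria, held 23.1, 27.9, 32.4 and 24.5 CPM in the WT libraries. In the cKO libraries it held 18.02, 20.2, 22.8 and 23.01 CPM. The groups were parted only by the narrow step between WT replicate 1 and cKO replicate 4. The log2 fold change was -0.36 ± 0.14 (SE, edgeR adjusted p = 0.882).

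Mrpl57 (chr14:57826234-57829296, plus strand), a small protein of the large subunit without a bacterial counterpart, held 19.4, 20.2, 24.4 and 19.02 CPM in the WT libraries. In the cKO libraries it held 16.5, 17.9, 18.5 and 14.9 CPM. The lowest WT library, replicate 4, lay just above the highest cKO library, replicate 3. Its log2 fold change was -0.30 ± 0.13 (SE, edgeR adjusted p = 0.882).

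Mrpl9 (chr3:94443318-94451130, plus strand), which belongs to the bacterial core of the large subunit, was at 79.9, 79.02, 75.7 and 76.02 CPM in the WT libraries and at 63.2, 70.5, 71.9 and 65.98 CPM in the cKO libraries. Its WT values were close together and all above cKO. The log2 fold change was -0.19 ± 0.09 (SE, edgeR adjusted p = 0.886).

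Mrpl27, whose bacterial counterpart reaches the peptidyl transferase centre, averaged 28.3 ± 1.25 CPM over the cKO libraries and 32.5 ± 2.43 over the WT libraries, with a log2 fold change of -0.20. Mrps28, of the small subunit, averaged 19.01 ± 1.09 CPM over the cKO libraries and 22.6 ± 2.95 over the WT libraries (SD, n = 4 each), with a log2 fold change of -0.25. In both genes the groups met closely, at 30.02 against 30.4 CPM in Mrpl27 and at 19.7 against 20.2 CPM in Mrps28. The value of Mrps28 depended on WT replicate 4, its highest library, whose genotype entry lists the Cre: it was -0.15 without that library and -0.039 with it counted as cKO. With the length trend removed, Mrps28 stood at -0.16 and Mrpl27 at -0.12.

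Mrpl35 (chr6:71812997-71826969, minus strand), a protein of the large subunit with a bacterial homologue, was the 1 gene higher in every cKO library. It held 33.2, 29.4, 32.5 and 33.2 CPM in the WT libraries and 38.8, 43.5, 37.1 and 37.3 CPM in the cKO libraries. The 3 cKO libraries other than replicate 2 lay within a narrow band above WT. The log2 fold change was 0.29 ± 0.10 (SE, edgeR adjusted p = 0.882).

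Mrps2 (chr2:28468066-28471178, plus strand), a bacterial-type protein of the small subunit, had the largest positive difference. It held 54.7, 51.4, 51.5 and 50.3 CPM in the WT libraries and 53.3, 72.5, 63.8 and 77.4 CPM in the cKO libraries. The WT libraries were close together, and cKO replicate 1 lay among them, so the groups overlapped. The log2 fold change was 0.36 ± 0.12 (SE, edgeR adjusted p = 0.867).

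The next largest positive differences were those of Mrps22 (log2 fold change 0.23), Mrpl47 (0.22), Mrps27 (0.22) and Mrpl40 (0.21). Mrpl47 sits where the tunnel opens and Mrpl40 in the central protuberance, while Mrps22 and Mrps27 are small subunit proteins particular to mitochondria. All 4 had overlapping groups, and cKO replicate 1 lay inside the WT range in Mrps22, Mrps27 and Mrpl40 and below it in Mrpl47. Single libraries moved these values. Mrpl47 stood at 0.097 and Mrps27 at 0.13 without cKO replicate 2, and Mrps22 at 0.15 without cKO replicate 4. Mrpl47 stood at 0.35 without cKO replicate 1. With WT replicate 4 counted as cKO, Mrps22 stood at 0.12, Mrps27 at 0.11 and Mrpl40 at 0.13. On the negative side, Mrpl14, a bacterial-type protein of the subunit interface, stood at -0.30 (edgeR adjusted p = 0.884), with overlapping groups, and at -0.18 without WT replicate 3. Mrpl23 had the largest negative value, -0.51 (95% interval -1.21 to 0.18, edgeR adjusted p = 0.895). Without WT replicate 2, its highest library, the value was -0.23, smaller in size than those of Mrps26, Mrpl2 and Mrps24 in the same fit. With the counts of Mrpl23-ps1 added, its value was -0.17, the mean of both together being 21.3 ± 2.60 CPM over the WT and 18.95 ± 3.65 CPM over the cKO libraries (SD, n = 4 each).

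Among the 8 genes with the highest levels, Mrpl2 was the 1 whose groups did not overlap. Mrpl34, with a log2 fold change of -0.20, averaged 73.8 ± 10.2 CPM over the WT and 64.3 ± 7.49 CPM over the cKO libraries, and Mrpl12 118 ± 16.9 and 114 ± 11.9 CPM (SD, n = 4 each). Mrpl10 had nearly equal values in all 4 WT libraries, 82.7 to 84.3 CPM, while the cKO libraries spread over 80.9 to 99.4 CPM. Mrpl42 averaged 90.2 ± 7.65 CPM over the WT and 99.4 ± 10.5 CPM over the cKO libraries. The groups overlapped in Mrpl34, Mrpl12, Mrpl10 and Mrpl42. The plot of differences shows every gene with its interval.

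**Figure D2:**
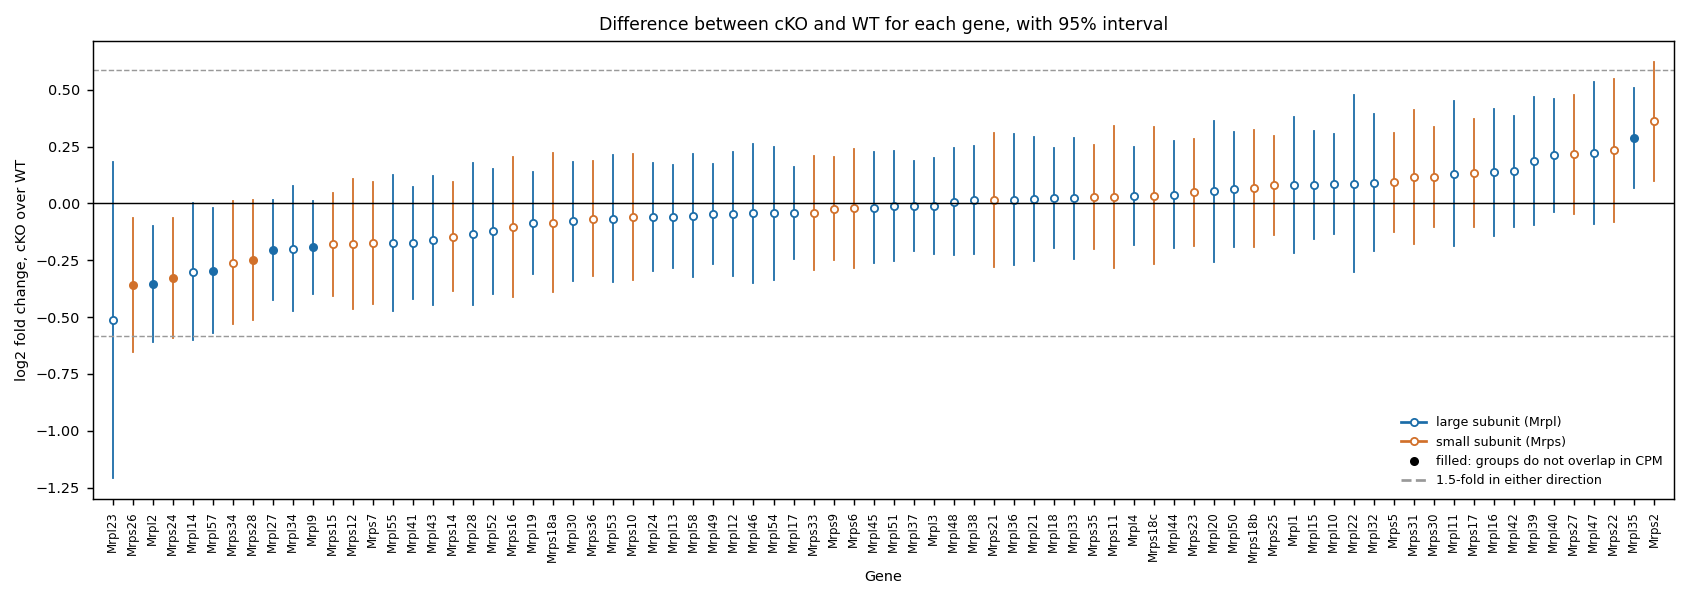
Fitted log2 fold change of cKO over WT for each of the 78 genes with its 95% interval, ordered from lowest to highest. Filled points mark the 8 genes whose groups do not overlap in CPM, and the intervals of 72 genes lie between the dashed lines of a 1.5-fold change.

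The structural regions of the ribosome had similar medians. The median log2 fold change was -0.01 in the large and -0.02 in the small subunit, 0.02 at the stalk, -0.03 at the exit tunnel, -0.02 in the central protuberance and -0.05 in the head of the small subunit. Members with a bacterial homologue had a median of -0.02 and those particular to mitochondria -0.01. None of these lists held a called gene, and they are described without a test.

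The partners of the ribosome in mitochondrial translation were likewise not called. The 5 ribosome proteins without an Mrp symbol (Dap3, Ptcd3, Aurkaip1, Chchd1 and Gadd45gip1) had a median log2 fold change of -0.04. The 24 assembly factors had a median of -0.02, and 1 of them, Fastkd2, which binds the large ribosomal RNA, had an unadjusted edgeR p below 0.05 at 0.33 on the log2 scale (edgeR adjusted p = 0.882). Malsu1, the assembly factor that binds Mrpl14, stood at -0.29 (edgeR adjusted p = 0.886), next to the -0.30 of Mrpl14 itself. The 15 translation factors had a median of 0.07, with 9 values above 0. The 20 genes for charging mitochondrial tRNAs had a median of -0.01, with 10 values on either side of 0.

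The transcripts that this ribosome translates had mostly positive differences. Among the 13 mitochondrially encoded subunits, 12 had a positive log2 fold change and the median was 0.36. None was called by edgeR, and 6 had an unadjusted edgeR p below 0.05, all of them higher, against 2.15% of all tested genes. In 5 genes (mt-Nd1, mt-Nd2, mt-Co1, mt-Atp6 and mt-Atp8) every cKO library lay above every WT library, against 1.23% of all tested genes. The largest value of these was that of mt-Atp8, at 0.70 ± 0.15 (SE, edgeR adjusted p = 0.393). The 2 ribosomal RNAs of the mitochondrion, mt-Rnr1 and mt-Rnr2, had values of 0.24 and 0.22 with overlapping groups.

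Counts per library set both genomes side by side. Mitochondrial ribosomal protein transcripts took 0.328%, 0.345%, 0.4001% and 0.331% of all counts in WT replicates 1 to 4 and 0.293%, 0.325%, 0.347% and 0.316% in cKO replicates 1 to 4. WT replicate 3 was highest and cKO replicate 1 lowest, and the groups overlapped. Mitochondrially encoded transcripts took 25.3%, 24.7%, 27.2% and 27.8% in WT and 26.8%, 31.7%, 31.2% and 31.3% in cKO. In that share cKO replicate 1 fell within the WT range, and the other 3 cKO libraries lay above it.

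The ratio of these shares separated the groups. For each count of the ribosomal protein genes, WT libraries held 77.0, 71.5, 68.0 and 83.9 counts of mitochondrially encoded transcripts, and cKO libraries held 91.4, 97.5, 90.01 and 99.1. The means were 75.1 ± 6.91 in WT and 94.5 ± 4.46 in cKO (SD, n = 4 each), with WT replicate 4 nearest to cKO. The ratio sums over the members and is given without a test. It was not taken for other nuclear genes, so it is not shown to be particular to this family. Cytosolic ribosomal protein genes also had a smaller mean share of all counts in cKO, at 0.709% against 0.865% in WT. The ratio combines a smaller share of the nuclear genes with a larger share of the mitochondrial ones. Both shares sum to a fixed total with all other genes. In bulk tissue, fewer cells of a type and less RNA per cell cannot be told apart.

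As a percentage of nuclear-encoded counts alone, the family took 0.440%, 0.458%, 0.550% and 0.458% in WT and 0.4004%, 0.476%, 0.504% and 0.459% in cKO. Both group means lay close together, at 0.476 ± 0.0496% and 0.460 ± 0.0438% (SD, n = 4 each). Over the 8 libraries this percentage and the mitochondrially encoded share had a Pearson r of 0.28 and a Spearman rho of 0.50. Without cKO replicates 2 and 4, which lay farthest from the median mitochondrial share, the values were 0.41 and 0.37 over 6 libraries. With the family's percentage of all counts, which shares its total with the mitochondrial share, they were -0.13 and -0.19 over 8 libraries, so the sign depends on the denominator. All of these values describe 8 libraries.

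Within a library, many members deviated in the same direction. In WT replicate 3, 60 of the 78 genes lay above their own mean over the 8 libraries, and in cKO replicate 3, 62 did. In cKO replicate 1 only 7 did, and the median gene lay 0.17 below its mean on the log2 scale (-0.17). In the other 5 libraries the count ran from 29 to 46. One library of each group thus stood high, and 1 of cKO stood low, as the map of deviations shows.

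**Figure D3:**
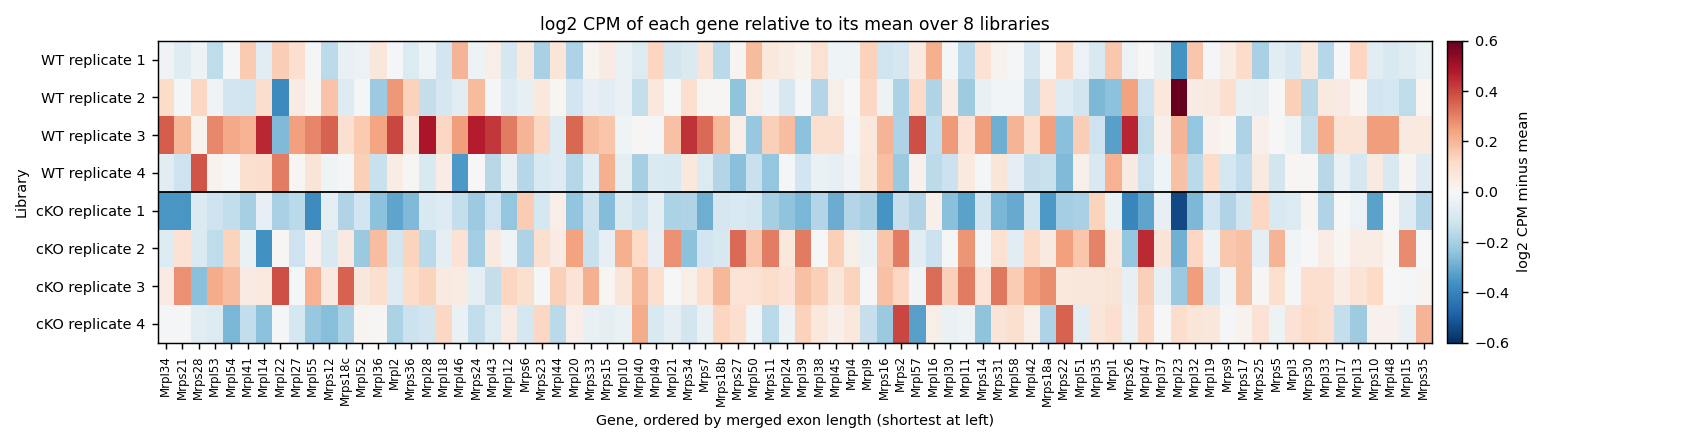
Deviation of log2 CPM from the gene's mean over 8 libraries, 1 column per gene ordered by merged exon length and 1 row per library, with the colour scale stopping at 0.6 in either direction. WT replicate 3 is mostly red, most of all among short genes at the left, cKO replicate 3 is mostly red, and cKO replicate 1 is mostly blue, where 7 of 78 genes lie above their mean.

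cKO replicate 1 also had the most transcript from skeletal muscle. All 14 muscle markers were detected and tested, their summed share ran from 0.00737% to 0.906% of counts in WT and from 0.0192% to 1.12% in cKO, and cKO replicate 1 held the highest value. All 14 had a positive log2 fold change, with a median of 0.61, and none was called. Over the 8 libraries the muscle share and the family's percentage of nuclear counts had a Pearson r of -0.63 and a Spearman rho of -0.38, and without cKO replicate 1 and WT replicate 4 values of -0.32 and 0.14 over 6 libraries. With the family's percentage of all counts they were -0.59 and -0.60 over 8 libraries, and -0.47 and -0.54 over the same 6. WT replicate 4 had nearly as much muscle RNA as cKO replicate 1 (0.906% and 1.12%), and the family took 0.458% of its nuclear counts. Its median gene deviated by -0.046 on the log2 scale, the lowest after cKO replicate 1, with 29 of 78 genes above their mean. The muscle share and this median deviation had a Pearson r of -0.80 and a Spearman rho of -0.64 over 8 libraries. Without cKO replicate 1 and WT replicate 4 they were -0.41 and -0.14 over 6 libraries. The part of muscle in the family's values was not tested. The 10 brown adipocyte markers, which were all detected, had a median log2 fold change near 0 (5 positive, 5 negative), and Ucp1 lay between 2233 and 3012 CPM in the WT libraries and between 2341 and 4545 CPM in the cKO libraries.

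Transcript length went along with the family's values as well. Its merged exons had a median length of 2394 bases against 4229 bases for all tested genes. Over all tested genes, the Spearman correlation between length and a library's deviation from the mean was -0.26 in WT replicate 3 and -0.24 in cKO replicate 3, where short genes read high. It was 0.18 in cKO replicate 1, where they read low, and between 0.02 and 0.11 in the other 5 libraries. Within the family it was -0.02, -0.04, -0.39 and -0.11 in WT replicates 1 to 4 and 0.13, 0.27, -0.10 and 0.39 in cKO replicates 1 to 4. The lowest value was again that of WT replicate 3, but the highest were those of cKO replicates 4 and 2, not of cKO replicate 1.

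The libraries in which short genes read high were those in which the family's share was high. The correlation with length over all genes and the family's percentage of nuclear counts had a Pearson r of -0.87 and a Spearman rho of -0.60 over 8 libraries. Without WT replicate 3 and cKO replicate 3 they were -0.51 and -0.03 over 6 libraries. With the family's percentage of all counts in place of that of nuclear counts, r was -0.87 and rho -0.95 over 8 libraries, and -0.92 and -0.89 over the same 6, so how far the relation rests on the libraries left out depends on the denominator. Cytosolic ribosomal protein genes, which are short too, had the same extreme libraries. Their percentage of nuclear counts was highest in WT replicate 3 (1.41%) and lowest in cKO replicate 1 (0.930%). It had a Pearson r of 0.84 and a Spearman rho of 0.60 with the family's percentage of nuclear counts over 8 libraries. Without WT replicate 3 and cKO replicate 3 these were 0.38 and 0.03 over 6 libraries. Whether the library's length pattern set the family's share was not tested.

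**Figure D4:**
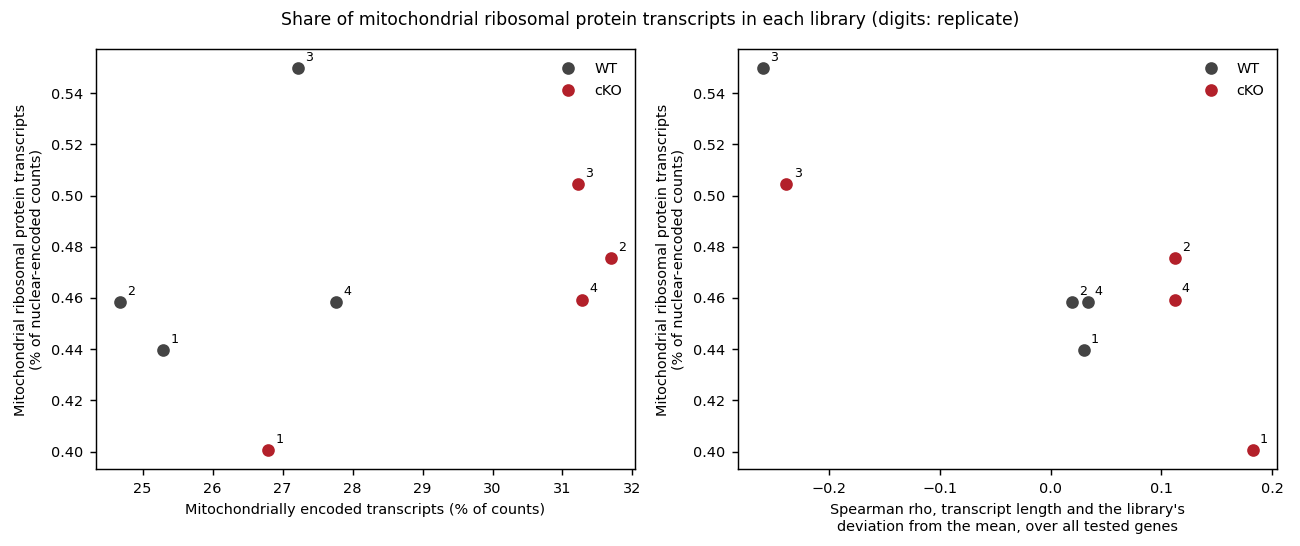
Percentage of nuclear-encoded counts in the 78 genes for each library, against the mitochondrially encoded percentage of all counts (left) and against the Spearman correlation of transcript length with the library's deviation over all tested genes (right). Digits are replicate numbers. The left panel has r = 0.28 over the 8 libraries, and in the right panel WT replicate 3 and cKO replicate 3 stand apart at the upper left.

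The difference between cKO and WT carried the same relation to length. Across the 78 genes, length and log2 fold change had a Spearman rho of 0.34, and across all 14541 tested genes with a length 0.13. Genes are not independent replicates, and these values have no p. The 39 shorter members had a median of -0.04 on the log2 scale with 15 above 0, and the 39 longer ones 0.01 with 21 above 0. All tested genes shorter than the family's median had a median of -0.05 (42.4% above 0), and the longer ones 0.02 (54.4% above 0). Over the 6022 tested genes within the family's middle range of lengths, 1480 to 4264 bases, the median was -0.01, next to the family's -0.02.

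Single libraries weighed on this relation. Without WT replicate 3 the rho within the family was 0.25, and with each library's length trend removed as an offset in the fit it was 0.08. With that offset, the median log2 fold change of the family was 0.02 and 43 of 78 genes lay above 0. No family member was called with it. The 7 genes that lay lower in cKO without overlap fell on both sides of the family's median length of 2394 bases. Mrps28, Mrpl27, Mrpl2 and Mrps24 lay below it, with merged exons of 783, 985, 1170 and 1466 bases. Mrpl9, Mrpl57 and Mrps26 lay above it, with 2703, 2956 and 4358 bases.

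**Figure D5:**
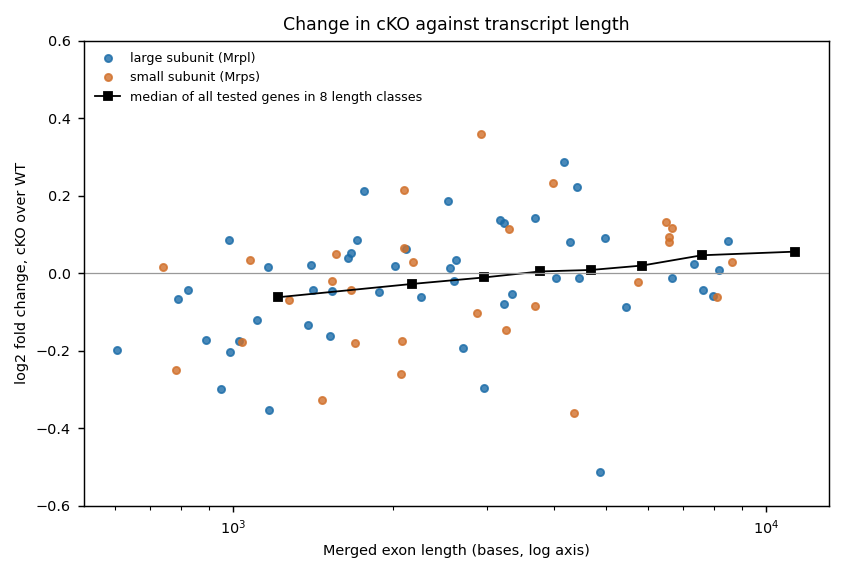
Fitted log2 fold change of cKO over WT against merged exon length on a log axis, with 1 point per gene of the family. Black squares are the medians of all tested genes in 8 classes of length, which run from -0.06 in the shortest class to 0.06 in the longest, and the family's points scatter on both sides of them.

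Cytosolic ribosomal proteins offer the nearest comparison, as a second ribosome built from nuclear genes. Of their 85 tested genes, 74 had a negative log2 fold change, and the median was -0.15. An unadjusted edgeR p below 0.05 was found in 22, all lower, against 3.45% of all tested genes. In 10 genes of the list every cKO library lay below every WT library, against 2.27% of all tested genes. In the mitochondrial family 42 of 78 were negative, with a median of -0.02. None of either list was called, and the difference between the lists was not tested.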

How the data were processed

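The authors deposited 1 table of estimated counts per gene; Salmon, StringTie, edgeR and build GRCm38 are named without versions in the submitters' processing notes. Their annotation release, filters and strand setting were not given in the sources used here. Exons of 33 members overlap another gene, 25 of them on the opposite strand only, and reads of such pairs may be divided either way. Symbols and lengths came from GENCODE M21, which named 99.5% of identifiers. Estimated counts were rounded to whole numbers. Library totals ran from 10712795 to 32436907 counts. Groups, 4 libraries each, followed the titles. No pair of libraries within a group agreed within sampling noise (smallest chi-square per degree of freedom 14.5).

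Genes were filtered with filterByExpr, scaled by TMM and tested with edgeR 4.0.16 in R 4.3.3 (quasi-likelihood, robust), with group as the only term and Benjamini-Hochberg adjustment over 14553 genes. CPM values are TMM-scaled, log2 CPM uses a prior count of 2, and intervals are at 95%. On data simulated for this comparison over 14553 genes, the test recovered 8.96% of genes changed 1.5-fold, 43.3% changed 2-fold and 90.9% changed 4-fold, with 7 false calls among 102.

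The members and gene lists were chosen with earlier results of these data known. Named genes are the 8 highest and 5 lowest by level, the 6 largest differences in each direction, all without overlap between groups, and those with at least 50% shared 31-base sequences. Mrpl37, Mrpl42, the copies of Mrpl23 and Mrpl53, the neighbouring genes, the genes whose promoters are printed and single genes of other lists were chosen after their values were seen. Alternatives were DESeq2 1.42.0 (Wald test and size factors), limma-voom (limma 3.58.1), upper quartile factors, other filters, 1 library left out at a time, a replicate block, WT replicate 4 counted as cKO, mitochondrially encoded genes removed, pseudogenes summed, a length offset and another length. Leaving out both replicates 3, the alternatives of the length relation and those of the counts without overlap were added after seeing the data, as were the shares of all genes beside them.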

Additional observations from a re-analysis of the deposited data

Results flagged for a closer look

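In 58 groups of 4 libraries examined for a library far from the others, 3 values stood apart, and chance alone sets apart about 1 in 20 groups. Mrpl12 in WT replicate 3 was at 142.7 CPM, with the other WT libraries at 107 to 112 CPM. Mrps28 in cKO replicate 3 was at 17.4 CPM, with the other cKO libraries at 19.4 to 19.7 CPM. The mitochondrially encoded share of counts in cKO replicate 1 was 26.8%, with the other cKO libraries at 31.2% to 31.7%.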

How the results depend on the processing

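No member was called in any of the 20 alternatives, and 4 to 9 had an unadjusted p below 0.05. Over all genes, 46 were called by the DESeq2 Wald test, 93 without the count filter, 1 with WT replicate 4 moved to cKO, and 8 to 14 with 1 library left out. The family's median log2 fold change ran from -0.05 to 0.04 and was positive without WT replicate 3 (0.03, 47 of 78 genes above 0), without cKO replicate 1 (0.04, 50 above 0) and with the length offset (0.02). Of 320 alternative values for 16 named members, 318 kept their direction, the lowest adjusted p being 0.332. Mrpl53 ran from -0.16 to 0.030 with 1 library left out, its sign changing without WT replicate 3, and stood at 0.021 with the length offset. The relation to length had a rho of 0.076 with the length offset and 0.25 to 0.43 with 1 library left out. The median level per length was 44.1 with the longest coding transcript.

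With a replicate block 0 members and 7 genes were called, the family's median was -0.02, and 8 members had an unadjusted p below 0.05. The correlations of libraries with the same number were -0.46, 0.03, 0.41 and 0.002 for replicates 1 to 4. Replicates 3 deviated together and the other numbers did not. Libraries of unlike number also did: WT replicate 1 with cKO replicate 3 at 0.46 and WT replicate 4 with cKO replicate 1 at 0.47. The numbers were therefore not taken to pair the samples. Of members without overlap, 8 were lower and 2 higher without both replicates 3 (6.43% and 4.81% of all genes), 5 lower and 3 higher with the length offset (2.32% and 1.51%), and 5 lower and 1 higher with mitochondrially encoded genes removed (2.11% and 1.34%).

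At 4 libraries per group the median 95% interval of a member reached 0.26 log2 units to either side. That of Mrpl23, with 282 counts in all, reached 0.69. These intervals are not adjusted for many tests, so the change needed for a call was larger. Mrpl2 at -0.35 and Mrps2 at 0.36 both had an edgeR adjusted p of 0.867. The simulation recovered 8.96% of genes changed 1.5-fold, but its changed genes were drawn from all tested genes. Their median interval reached 0.385 log2 units, wider than that of the family, so this percentage is not that of a member.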
